A study of Chromochloris zofingiensis with 6 samples.

Results

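The genes described here encode the nuclear-encoded subunits of photosystem I (PSI) and photosystem II (PSII) and the light-harvesting complex (LHC) proteins of the green microalga *Chromochloris zofingiensis*. They were taken from the list of photosynthesis genes that the study compiled, under its sections for the photosystems and the light-harvesting complexes, with each gene counted once. This gave 45 of the 15037 genes listed in the deposited files: 10 PSI subunits, 13 PSII subunits and 22 LHC proteins. Of the 22 LHC genes, 13 were put with PSI and 7 with PSII in that list, and 2 encode the minor PSII antenna proteins CP29 and CP26. The choice used the annotation of the genes and none of the measured values as a criterion, but it was made with earlier results of these data known. The list calls the assignment of LHC1 to LHC20 to a photosystem putative.

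Poly-A RNA of strain ATCC30412 was sequenced in 6 libraries, with 3 biological replicates per time. The sample titles and the methods of the study do not say whether the same cultures were sampled at both times. The 6 h group was collected 6 h after cells in exponential growth had been spun down, washed and placed in Kuhl medium with 200 mM NaCl, and the 0 h group was collected at 0 h. Both groups were the same strain and received continuous light of 80 µE m-2 s-1 and air with 1.5% CO2 in 250 mL columns, as the sample records give it. The methods of the study describe a weaker light and a smaller column. No library came from cells kept for 6 h without NaCl, so that salt, time, handling and fresh medium cannot be told apart in any difference given here.

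PSII splits water on the lumenal side of the thylakoid membrane and passes the electrons to plastoquinone, and PSI takes electrons from plastocyanin or cytochrome c6 and passes them to ferredoxin on the stromal side. Around both cores, chlorophyll-binding LHC proteins collect light and pass the excitation energy inwards. In green algae the large core subunits that carry the reaction centres are made from plastid genes and were not analysed here, whereas many smaller subunits and the LHC proteins are made from nuclear genes and imported into the chloroplast.

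The values are FPKM, that is, fragments of a gene set per length of its transcript and per depth of its library. They can therefore be compared between genes, and a far lower value means a smaller share of the mRNA in the library. For small differences this need not hold, since the summed FPKM ranged from 924660 in 0 h replicate 1 to 1135980 in 6 h replicate 1. The amount of mRNA per cell was not measured, so that a fall of a transcript per cell and a dilution by other mRNAs cannot be told apart. The 6 h libraries varied more than the 0 h libraries. Over all genes tested the SD of the residuals on the log2 scale was 0.541, 0.289 and 0.630 in the 6 h libraries, against 0.189, 0.165 and 0.195 in the 0 h libraries, and 6 h replicates 1 and 3 stood apart from each other. The counts of down-regulated members given below were the same when any 1 of the 6 libraries was left out.

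The photosystem and antenna genes took 0.315, 0.275 and 0.227% of the summed FPKM in the 6 h libraries, against 9.38, 10.1 and 10.2% in the 0 h libraries. At 0 h they were among the most abundant mRNAs of the cell, and 32 of the 100 genes with the highest mean FPKM were members. At 6 h, 0 of the 100 most abundant genes were members. The most abundant member at 6 h was PsbR in each library, at rank 228, 255 and 275 of all genes.

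Of the 45 members, 44 were above a mean of 1 FPKM and entered the comparison of 6 h with 0 h, and all 44 were above it at both times. The remaining gene, LHC14 (Cz04g24050), was listed with 0.09 FPKM in 0 h replicate 2 and at 0 in the other libraries. Genes were called up- or down-regulated at an adjusted p under 0.05 (limma, Benjamini-Hochberg over the 13886 genes tested) together with a change of 1 or more on the log2 scale. Down-regulation was called for 36 of 44 members (81.8%), beside 26.6% of all genes tested. Up-regulation was called for 5 of 44 members (11.4%), beside 20.0% of all genes tested, and 46.6% of all genes were called in either direction. Down-regulation was thus more frequent among the members than among all genes, and up-regulation less so, which was not tested as a difference. The other 3 members, Psb27B, LHC13 and LHC15, passed neither rule. The median log2 fold change of the members was -5.30, beside -0.04 for all genes tested. A log2 fold change of -5 or below was reached by 27 members, beside 2.06% of all genes tested, and 14 of the 50 genes with the largest falls were members. Without a model, the deposited FPKM of the 3 libraries at 6 h lay below those of the 3 libraries at 0 h in 37 members and above them in 5, beside 46.1 and 27.2% of all genes tested, and the groups overlapped in LHC13 and LHC15.

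**Figure D1:**
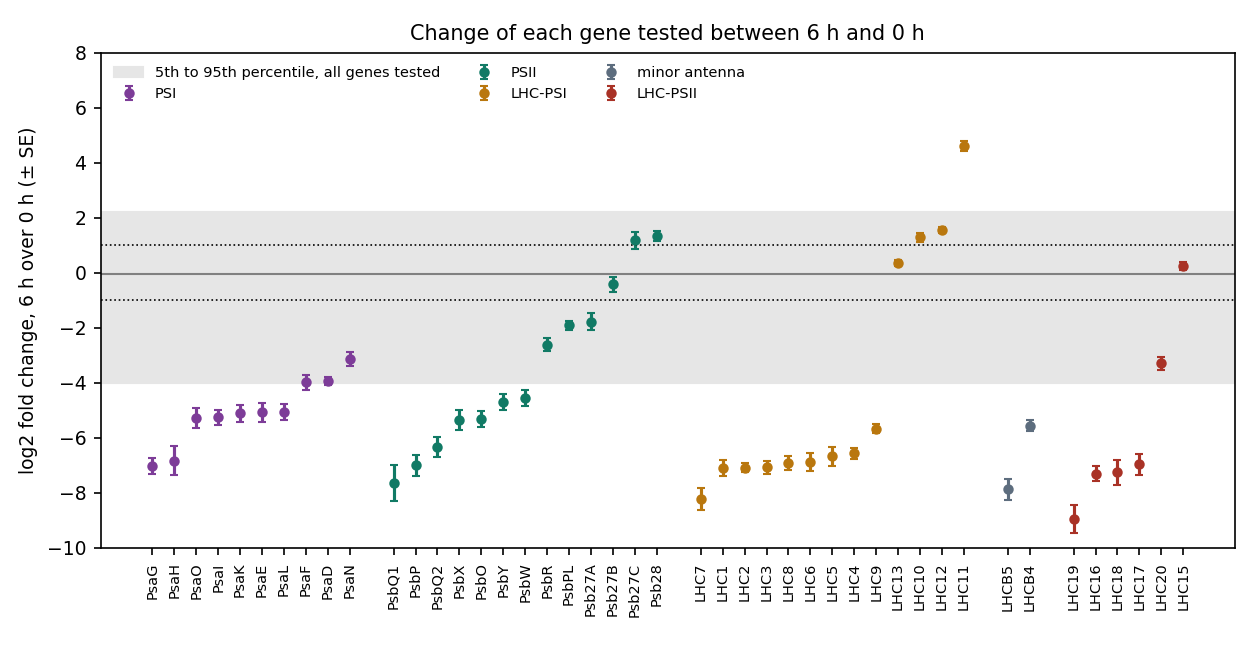
Log2 fold change (6 h over 0 h) of the 44 members tested, grouped by complex, with bars for the standard error, dotted lines at the limit of 1 in each direction and a grey band from the 5th to the 95th percentile of all genes tested (-3.99 to 2.22). All 10 PSI subunits lie below -3, and the members above 0 are Psb27C and Psb28 of PSII and LHC10, LHC11, LHC12, LHC13 and LHC15 of the antenna.

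All 10 PSI subunits were down-regulated, with log2 fold changes between -7.03 for PsaG and -3.14 for PsaN, a median of -5.09 and limma adjusted p between 1.05e-05 and 1.05e-04. Their summed level was 752, 599.6 and 407 FPKM at 6 h, against 15535.5, 16809 and 17554 FPKM at 0 h. The mean of the sum at 0 h was 28.4 times that at 6 h, and every PSI gene had all 6 h values below all 0 h values.

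On the stromal side, PsaD and PsaE form the docking site for ferredoxin. PsaD (Cz05g36030) had 179, 159 and 138 FPKM at 6 h, against 2840.1, 3068 and 3158 FPKM at 0 h (log2 fold change -3.95 ± 0.15 (SE), limma adjusted p = 1.05e-05). Its 6 h values lay close together and far under the lowest 0 h value, and it remained the most abundant PSI mRNA at 6 h. PsaE (Cz04g01180), its partner at the docking site, had 54.6, 35.4 and 21.9 FPKM at 6 h, against 1259, 1537 and 1604 FPKM at 0 h (log2 fold change -5.07 ± 0.34 (SE), limma adjusted p = 5.19e-05). The groups did not overlap, and 6 h replicate 1 was the highest of its group. The 0 h means of PsaD and PsaE were 19.1 and 39.3 times their 6 h means.

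On the lumenal side, PsaF binds the incoming plastocyanin or cytochrome c6, and PsaN takes part in the docking of plastocyanin in plants. PsaF (Cz13g06010) had 122, 83.6 and 59.1 FPKM at 6 h, against 1558, 1718 and 1673 FPKM at 0 h. PsaN (Cz17g10010) had 147, 132 and 78.8 FPKM at 6 h, against 1205, 1268 and 1305 FPKM at 0 h. PsaN had the smallest fall of the PSI genes, with a 0 h mean 10.5 times its 6 h mean (log2 fold change -3.14 ± 0.25 (SE), limma adjusted p = 1.05e-04), and that of PsaF was 18.7 times (log2 fold change -3.98). In both genes the 6 h libraries were all below the 0 h libraries. PsaD and PsaN together made up 43.3, 48.6 and 53.4% of the PSI sum at 6 h, against 26.0, 25.8 and 25.4% at 0 h.

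The largest falls among PSI genes were those of PsaG and PsaH. PsaG, a membrane subunit on the side of the core where the PSI antenna binds in plants, had 14.7, 8.49 and 6.48 FPKM at 6 h, against 1483, 1531 and 1548 FPKM at 0 h (Cz06g31280; log2 fold change -7.03 ± 0.30 (SE), limma adjusted p = 1.37e-05). The highest 0 h library was 1.04 times the lowest, whereas 6 h replicate 1 was above both other 6 h libraries. PsaH, which lies where mobile LHCII docks on PSI, had 8.29, 6.10 and 1.93 FPKM at 6 h, against 564, 698 and 756 FPKM at 0 h (Cz12g12230; log2 fold change -6.84 ± 0.53 (SE), limma adjusted p = 9.08e-05). It was the least abundant PSI mRNA at both times, and at 6 h its highest library was 4.30 times its lowest. Without 6 h replicate 3 its log2 fold change was -6.21. The 0 h mean was 154 times the 6 h mean for PsaG and 124 times for PsaH.

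The other PSI members were PsaI, PsaL and PsaO, which lie with PsaH on the LHCII docking side in plants, and PsaK, a membrane subunit at the edge of the core. PsaL (Cz02g18180) had 63.1, 48.01 and 29.7 FPKM at 6 h, against 1732, 1896 and 1934 FPKM at 0 h. PsaO (Cz15g01010) had 68.4, 40.5 and 24.9 FPKM at 6 h, against 1843, 1964 and 2166 FPKM at 0 h. PsaI (Cz01g05275) had 33.6, 29.4 and 17.2 FPKM at 6 h, against 1115, 1227 and 1329 FPKM at 0 h. The log2 fold changes of these genes were close, with -5.06 for PsaL, -5.29 for PsaO and -5.26 for PsaI. PsaK (Cz06g26010) had 61.7, 56.9 and 28.3 FPKM at 6 h, against 1938, 1904 and 2081 FPKM at 0 h (log2 fold change -5.10). In all 4 genes the groups were far apart, and 6 h replicate 3 had the lowest value.

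**Figure D2:**
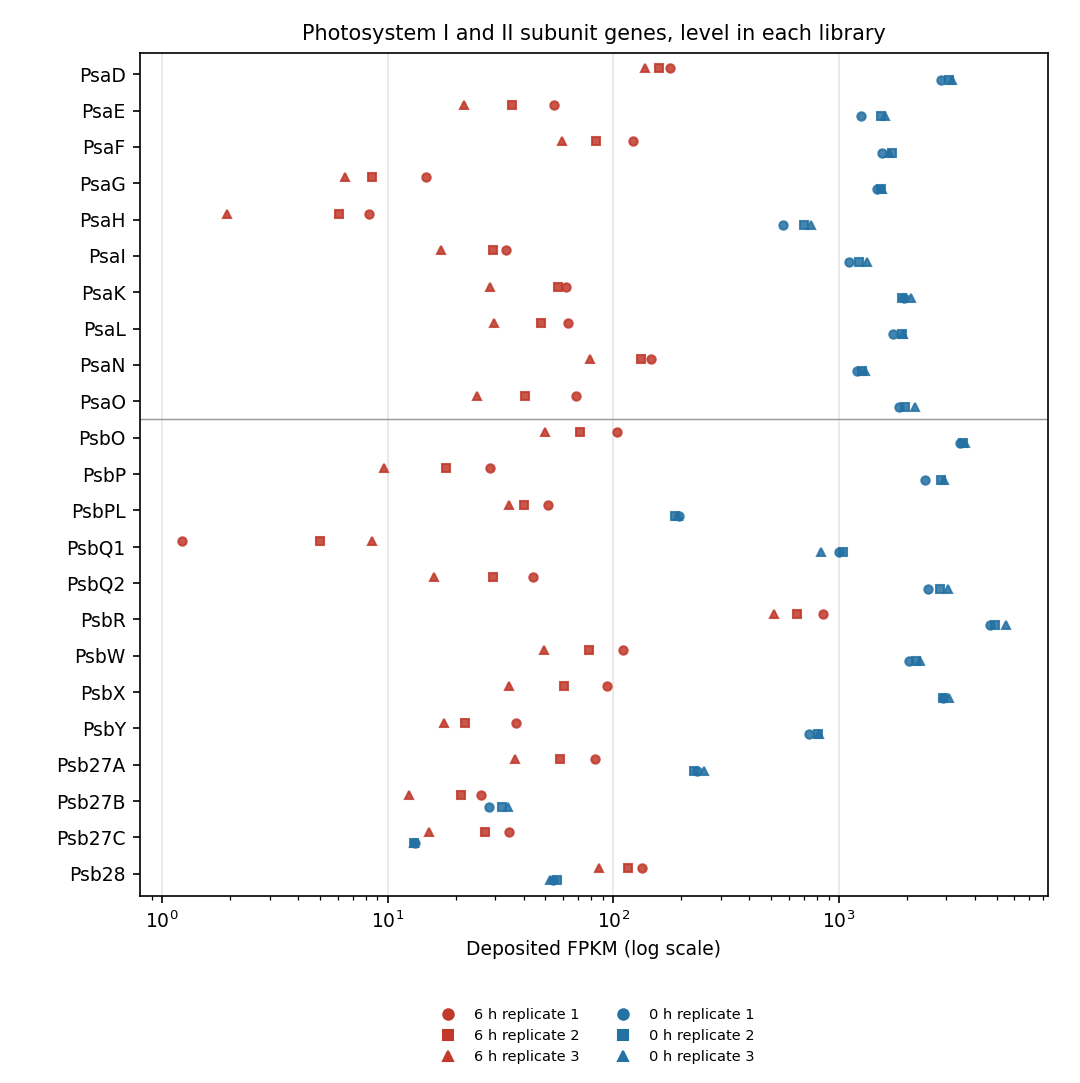
Deposited FPKM (log axis) of the 10 PSI and 13 PSII subunit genes in each of the 3 libraries at 6 h and the 3 libraries at 0 h. The groups are far apart for every PSI gene, whereas Psb27B lies close to its 0 h level and Psb27C and Psb28 lie above it.

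Among the 13 PSII genes, 10 were down-regulated, 2 up-regulated and 1 was not called, with a median log2 fold change of -4.54. Their summed level was 1599, 1201 and 887 FPKM at 6 h, against 20238, 21592 and 22703 FPKM at 0 h, with a 0 h mean of 17.5 times the 6 h mean. The genes for structural subunits and that for the PsbP-like protein were all lower, whereas those for the auxiliary proteins Psb27 and Psb28 were not all so.

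The extrinsic proteins PsbO, PsbP and PsbQ cover the manganese cluster that splits water on the lumenal side and hold its calcium and chloride in place. PsbO (Cz16g19040) had 103, 71.4 and 49.7 FPKM at 6 h, against 3453, 3543 and 3622 FPKM at 0 h (log2 fold change -5.32 ± 0.27 (SE), limma adjusted p = 2.18e-05). PsbP (Cz07g15040) had 28.4, 18.2 and 9.63 FPKM at 6 h, against 2405, 2836 and 2932 FPKM at 0 h (log2 fold change -7.00 ± 0.39 (SE), limma adjusted p = 2.67e-05). Both were among the 16 most abundant mRNAs at 0 h, and their groups did not overlap. Of the genes for PsbQ, PsbQ2 (Cz05g09100) had 44.1, 29.3 and 16.1 FPKM at 6 h, against 2496, 2801 and 3049.5 FPKM at 0 h (log2 fold change -6.34 ± 0.36 (SE), limma adjusted p = 3.06e-05). PsbQ1 (Cz05g13170) had 1.22, 5 and 8.54 FPKM at 6 h, against 1005, 1041 and 834 FPKM at 0 h (log2 fold change -7.64 ± 0.65 (SE), limma adjusted p = 1.39e-04). The 0 h mean of PsbQ1 was 195 times its 6 h mean, and its highest 6 h library was 7 times the lowest. Its log2 fold change depended on 1 library and was -6.88 without 6 h replicate 1, where that of PsbP was -7.38, and -8.21 without 6 h replicate 3. It was the only one of the 36 down-regulated members in which 6 h replicate 3 was the highest library and 6 h replicate 1 the lowest. The 4 extrinsic genes made up 11.1, 10.3 and 9.46% of the PSII sum at 6 h, against 46.2, 47.3 and 46.0% at 0 h.

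PsbR, a small PSII protein needed in plants for stable binding of PsbP and PsbQ, kept a higher level at 6 h than any other member. PsbR (Cz09g21140) had 852, 655 and 517 FPKM at 6 h, against 4656, 4944 and 5528 FPKM at 0 h (log2 fold change -2.62 ± 0.23 (SE), limma adjusted p = 1.62e-04). It was down-regulated with no overlap, to a smaller extent than the extrinsic proteins, and its 0 h mean was 7.48 times its 6 h mean. PsbR made up 53.3, 54.5 and 58.2% of the PSII sum at 6 h, against 23.0, 22.9 and 24.3% at 0 h.

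Small membrane-spanning subunits are encoded by PsbW, which stabilises the supercomplex of PSII with its antenna, and by PsbX and PsbY at the edge of the core. PsbX (Cz17g16010) had 94.2, 60.6 and 34.5 FPKM at 6 h, against 2907, 2902 and 3087 FPKM at 0 h (log2 fold change -5.36). PsbW (Cz19g05110) had 111, 77.7 and 49.5 FPKM at 6 h, against 2053, 2194 and 2286 FPKM at 0 h (log2 fold change -4.54). PsbY (Cz17g15140) had 37, 21.98 and 17.8 FPKM at 6 h, against 738, 811 and 820.3 FPKM at 0 h (log2 fold change -4.70). All 3 were down-regulated, with limma adjusted p between 3.34e-05 and 5.39e-05, and in all of them 6 h replicate 1 was the highest and 6 h replicate 3 the lowest library at 6 h. PsbPL (Cz02g18040), annotated as a PsbP-like protein, had a lower 0 h level and a smaller fall, with 51.3, 40.1 and 34.3 FPKM at 6 h, against 195, 188 and 194 FPKM at 0 h (log2 fold change -1.91 ± 0.17 (SE), limma adjusted p = 1.61e-04).

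Psb27 and Psb28 bind to PSII while it is assembled or repaired and leave the finished complex, as known from cyanobacteria and, for Psb27, from plants. Psb27A (Cz04g12110) had 83.1, 57.8 and 36.7 FPKM at 6 h, against 235, 229 and 251 FPKM at 0 h (log2 fold change -1.78 ± 0.30 (SE), limma adjusted p = 0.00240). It was the most abundant of these genes at 0 h and was down-regulated, with no overlap. Psb27B (Cz09g22190) had 25.8, 21.1 and 12.5 FPKM at 6 h, against 28.1, 32.3 and 34.1 FPKM at 0 h. All its 6 h values lay below its 0 h values as deposited, but 6 h replicate 1 came near the lowest 0 h library and the gene was not called (log2 fold change -0.42 ± 0.28 (SE), limma adjusted p = 0.227). Psb27C (Cz02g41080) had 34.4, 27.1 and 15.3 FPKM at 6 h, against 13.3, 13.1 and 13.02 FPKM at 0 h. It was called up-regulated (log2 fold change 1.19 ± 0.31 (SE), limma adjusted p = 0.0144), with 6 h replicate 3 only slightly above the 0 h libraries, and the call was lost without 6 h replicate 1 (log2 fold change 0.92) or without 6 h replicate 2 (adjusted p = 0.057), and without scaling, where the log2 fold change was 0.88. Psb28 (Cz13g07140) had 133, 116 and 86 FPKM at 6 h, against 53.8, 56.4 and 52.6 FPKM at 0 h (log2 fold change 1.33 ± 0.18 (SE), limma adjusted p = 0.00102). Its groups did not overlap, and with each library scaled to the same sum its log2 fold change was 0.89, below the limit of 1. The 4 genes made up 17.3, 18.5 and 16.96% of the PSII sum at 6 h, against 1.63, 1.53 and 1.55% at 0 h.

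Among the 22 LHC genes, 16 were down-regulated, 3 up-regulated, 2 not called and LHC14 not tested, with a median log2 fold change of -6.88 over the 21 tested. Their summed level was 1229, 1097 and 829.8 FPKM at 6 h, against 50974, 56752 and 59733 FPKM at 0 h. The 0 h mean was 53.1 times the 6 h mean, a larger ratio than that of the PSI or PSII sums. For sums over chosen genes no test was made.

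The LHC genes put with PSII held the most abundant mRNAs of the group. LHC16 (Cz13g03240) had 60.4, 51.1 and 30.5 FPKM at 6 h, against 8465, 8837 and 9653 FPKM at 0 h (log2 fold change -7.31 ± 0.27 (SE), limma adjusted p = 1.04e-05). LHC17 (Cz07g02110) had 91.7, 62.7 and 33.1 FPKM at 6 h, against 7594, 9260.3 and 10079 FPKM at 0 h (log2 fold change -6.97 ± 0.38 (SE), limma adjusted p = 2.60e-05). LHC18 (Cz07g02100) had 71.1, 61.8 and 22.9 FPKM at 6 h, against 7686, 9153 and 9820.3 FPKM at 0 h (log2 fold change -7.26 ± 0.44 (SE), limma adjusted p = 3.68e-05). By mean FPKM these were the genes at rank 2, 3 and 4 of all genes at 0 h, and at 6 h they ranked 4038, 3044 and 3704. In all of them every 0 h library was at 7594 FPKM or above and every 6 h library was at 91.7 FPKM or below. LHC17 and LHC18 had close values in the 0 h libraries and in 6 h replicate 2. How far reads can be shared between such isogenes was not tested, since their sequences were not used here.

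LHC19 (Cz15g09060) had the largest fall of all members, with 17.6, 11.5 and 4.15 FPKM at 6 h, against 5368, 5961 and 6139.7 FPKM at 0 h (log2 fold change -8.94 ± 0.51 (SE), limma adjusted p = 3.01e-05). The 0 h mean was 525 times the 6 h mean, and of all genes tested it had the 4th largest fall. Its 6 h libraries differed from each other by up to 4.25 times, with 6 h replicate 3 lowest, and without that library the log2 fold change was -8.34. LHC20 (UNPLg00080) had 321, 305 and 187 FPKM at 6 h, against 3129, 3206 and 3229 FPKM at 0 h (log2 fold change -3.29 ± 0.24 (SE), limma adjusted p = 6.90e-05). It was down-regulated as well, with a 0 h mean 11.8 times its 6 h mean, and was the most abundant LHC mRNA at 6 h. LHC20 made up 54.2, 59.1 and 61.6% of the sum of LHC genes put with PSII at 6 h, against 9.70, 8.80 and 8.29% at 0 h. LHC16, LHC17 and LHC18 together made up 37.7, 34.1 and 28.5% of it at 6 h, against 73.6, 74.8 and 75.9% at 0 h.

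LHC15 (Cz11g23240) was the remaining expressed gene put with PSII, and it had 30.3, 23.5 and 25.9 FPKM at 6 h, against 28.2, 27.9 and 26.3 FPKM at 0 h. The groups overlapped, and LHC15 was not called (log2 fold change 0.25 ± 0.14 (SE), limma adjusted p = 0.158). The sign of this small difference depended on the scaling and was -0.056 without scaling.

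CP29 and CP26 link the outer LHCII trimers to the PSII core. LHCB4 (Cz03g26240), for CP29, had 57.3, 47.4 and 34.5 FPKM at 6 h, against 2593, 2701 and 2703 FPKM at 0 h (log2 fold change -5.56 ± 0.20 (SE), limma adjusted p = 1.03e-05). LHCB5 (Cz08g11160), for CP26, had 10.5, 7.45 and 3.44 FPKM at 6 h, against 1773, 1938 and 2038 FPKM at 0 h (log2 fold change -7.88 ± 0.40 (SE), limma adjusted p = 2.01e-05). Both fell with no overlap, and the 0 h mean was 57.4 times the 6 h mean for LHCB4 and 269 times for LHCB5. At 0 h the mRNA of CP29 was the more abundant one in every library, and the same held at 6 h.

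The 13 LHC genes put with PSI split into 9 that were abundant at 0 h and down-regulated, and 4 with lower 0 h levels that were not. LHC1 to LHC9 each had between 1076 and 2679 FPKM in the 0 h libraries and between 3.73 and 36.2 FPKM in the 6 h libraries. Their log2 fold changes lay between -8.22 and -5.67, with limma adjusted p of 2.12e-05 or less. The largest fall was that of LHC7 (Cz15g17110), with 11.2, 6.93 and 3.73 FPKM at 6 h, against 2243, 2558 and 2679 FPKM at 0 h (log2 fold change -8.22 ± 0.39 (SE), limma adjusted p = 1.64e-05). The 0 h mean of LHC7 was 341 times its 6 h mean. The smallest fall was that of LHC9 (Cz16g14150), with 36.2, 26.7 and 25.7 FPKM at 6 h, against 1756, 1875 and 1911 FPKM at 0 h (log2 fold change -5.67 ± 0.16 (SE), limma adjusted p = 7.22e-06). For LHC9 this ratio was 62.6, and in both genes 6 h replicate 1 was the highest 6 h library.

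The other 7 of these genes moved by similar amounts. LHC1 (Cz01g23030) had 10.5, 7.29 and 4.87 FPKM at 6 h, against 1128, 1277 and 1301 FPKM at 0 h (log2 fold change -7.09). LHC2 (Cz04g04130) had 7.81, 6.79 and 5.43 FPKM at 6 h, against 1076, 1166 and 1136 FPKM at 0 h (log2 fold change -7.08). LHC3 (Cz04g09210) had 15.04, 12.2 and 7.78 FPKM at 6 h, against 1882, 1958 and 1860.5 FPKM at 0 h (log2 fold change -7.08). The changes of LHC1, LHC2 and LHC3 differed from each other by less than the smallest of their standard errors, 0.16. LHC4 (Cz09g32070) had 20.4, 13.8 and 12.6 FPKM at 6 h, against 1688, 1819.5 and 1864 FPKM at 0 h (log2 fold change -6.56). LHC5 (Cz10g10160) had 23.4, 13.1 and 9.22 FPKM at 6 h, against 1597, 1858 and 1956 FPKM at 0 h (log2 fold change -6.67). For LHC5 the 6 h libraries were more spread than for LHC4, by 2.54 against 1.62 times between highest and lowest. LHC6 (Cz12g16070) had 16.1, 13.6 and 6.68 FPKM at 6 h, against 1578, 1664 and 1773 FPKM at 0 h (log2 fold change -6.88). LHC8 (Cz02g14140) had 11.8, 8.81 and 5.92 FPKM at 6 h, against 1196, 1297 and 1367 FPKM at 0 h (log2 fold change -6.92). In none of these genes did a 6 h library come near the 0 h level.

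Up-regulation was seen in LHC10, LHC11 and LHC12. LHC11 (Cz14g01080) had 77.3, 79 and 72.9 FPKM at 6 h, against 3.05, 3.70 and 4.64 FPKM at 0 h (log2 fold change 4.62 ± 0.17 (SE), limma adjusted p = 1.05e-05). It was the lowest expressed of the tested members at 0 h, and its 6 h libraries lay close together and all far above the 0 h libraries. The 6 h mean was 20.1 times the 0 h mean, and the gene was called up-regulated under every alternative tried. LHC12 (Cz03g00160) had 128, 147 and 171 FPKM at 6 h, against 61.1, 62.3 and 63.5 FPKM at 0 h (log2 fold change 1.55 ± 0.12 (SE), limma adjusted p = 9.95e-05). Its groups did not overlap, 6 h replicate 3 was its highest library, and it too was called under every alternative tried. LHC10 (Cz08g26140) had 135, 116 and 93.2 FPKM at 6 h, against 54.9, 57.4 and 59.96 FPKM at 0 h (log2 fold change 1.29 ± 0.16 (SE), limma adjusted p = 6.54e-04). All its 6 h libraries were above its 0 h libraries, while its log2 fold change was 0.98 without scaling and 0.85 with every library scaled to the same sum, below the limit of 1.

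LHC13 (Cz08g00190) had 76.01, 75.7 and 69.2 FPKM at 6 h, against 74.6, 72.5 and 66.8 FPKM at 0 h. The groups overlapped and the change was small (log2 fold change 0.35 ± 0.10 (SE), limma adjusted p = 0.0241), under the limit of 1, and its sign turned to -0.086 when each library was scaled to the same sum. LHC10 to LHC13 together made up 73.2, 79.2 and 83.2% of the sum of LHC genes put with PSI at 6 h, against 1.35, 1.251 and 1.21% at 0 h.

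**Figure D3:**
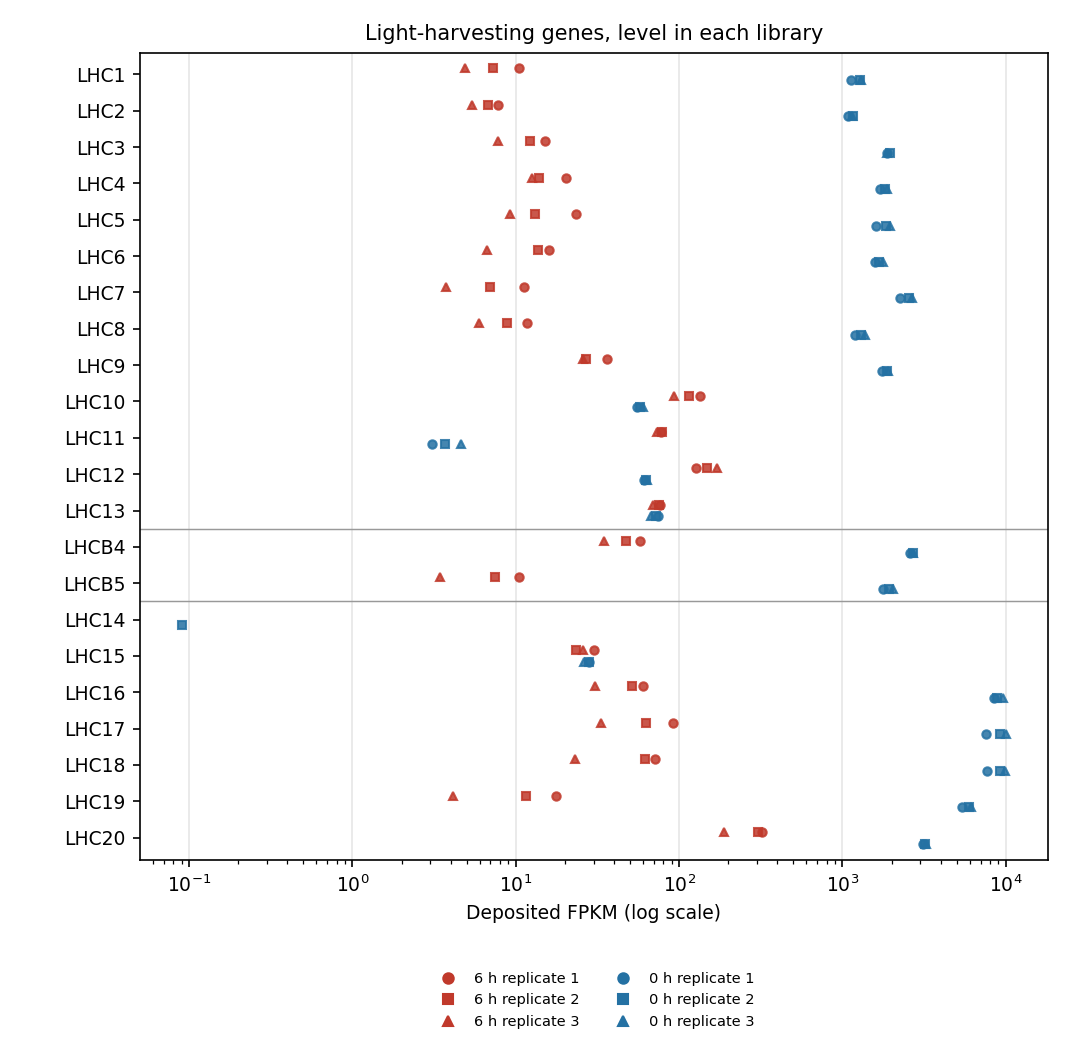
Deposited FPKM (log axis) of the 22 LHC genes in each library, with the genes put with PSI at the top, the minor antenna genes LHCB4 and LHCB5 in the middle and the genes put with PSII at the bottom; values of 0 are not drawn. LHC10, LHC11 and LHC12 lie higher at 6 h, LHC13 and LHC15 overlap, and the other tested genes lie lower at 6 h by 11.8 times or more between means.

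Ratios of sums within a library do not depend on the scaling between libraries. The sum of PSII over that of PSI genes was 2.13, 2.003 and 2.18 at 6 h, against 1.30, 1.28 and 1.29 at 0 h. The sum of all LHC genes over that of both photosystems was 0.523, 0.609 and 0.641 at 6 h, against 1.42, 1.48 and 1.48 at 0 h. The PSII antenna genes (with LHCB4 and LHCB5) over the PSII genes gave 0.413, 0.475 and 0.385 at 6 h, against 1.81, 1.90 and 1.92 at 0 h. In these 3 ratios the groups did not overlap. The LHC genes put with PSI over the PSI genes gave 0.756, 0.879 and 1.20 at 6 h, against 0.923, 0.932 and 0.914 at 0 h, and here the groups overlapped. As LHC10 to LHC13 made up most of the PSI antenna sum at 6 h, the last ratio set largely other genes against PSI at 6 h than at 0 h. The make-up of the PSII sum changed as well, with PsbR at 53.3 to 58.2% of it at 6 h, against 22.9 to 24.3% at 0 h. The ratios that use this sum thus rested largely on PsbR at 6 h. They were not computed without PsbR and do not show how the other PSII genes stood to PSI or to the antenna.

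**Figure D4:**
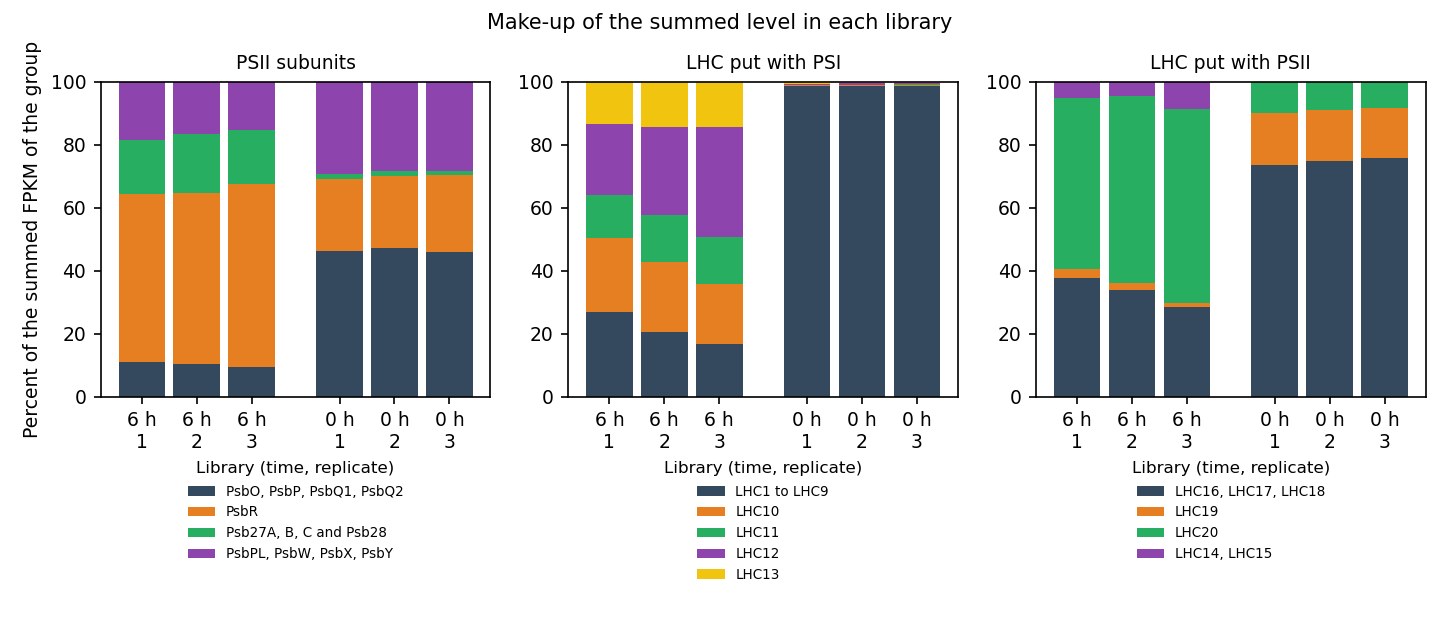
Percent of the summed FPKM of PSII genes (left), of LHC genes put with PSI (middle) and of LHC genes put with PSII (right) that named genes make up, in each library at 6 h and at 0 h. PsbR takes 53.3 to 58.2% of the PSII sum at 6 h, LHC10 to LHC13 take 73.2 to 83.2% of the PSI antenna sum and LHC20 takes 54.2 to 61.6% of the PSII antenna sum.

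The order of the members by level was not kept between the times. Over the 44 tested members the Spearman coefficient between the mean FPKM at 6 h and at 0 h was 0.14. Between pairs of libraries, Pearson's r of the log2 values of all 45 members was 0.934 to 0.980 within 6 h and 0.999 within 0 h. Between the times it was 0.206 to 0.369. These values of r include LHC14, which was at or near 0 in every library and lay far below the other members at both times. A single such gene can raise r, and r was not computed without it. These coefficients are over genes of the same libraries and are given without a test.

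Most members had a high level at 0 h and a far lower one at 6 h. Of the 44 tested, 34 had a mean of at least 500 FPKM at 0 h, and of these PsbR alone, at 675 FPKM, had one at 6 h. The other 10 members, with lower 0 h levels, held all 5 that were up-regulated, beside PsbPL and Psb27A, which were down-regulated, and Psb27B, LHC13 and LHC15. The level of 500 FPKM was chosen after the values had been seen. As the 0 h level is part of the fold change, this is a description of the members, and nothing is drawn from it on how level and change are related. The Spearman coefficient between the 0 h mean and the log2 fold change was -0.55 over the 44 tested members and 0.03 over all genes tested. Both are given without a test.

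**Figure D5:**
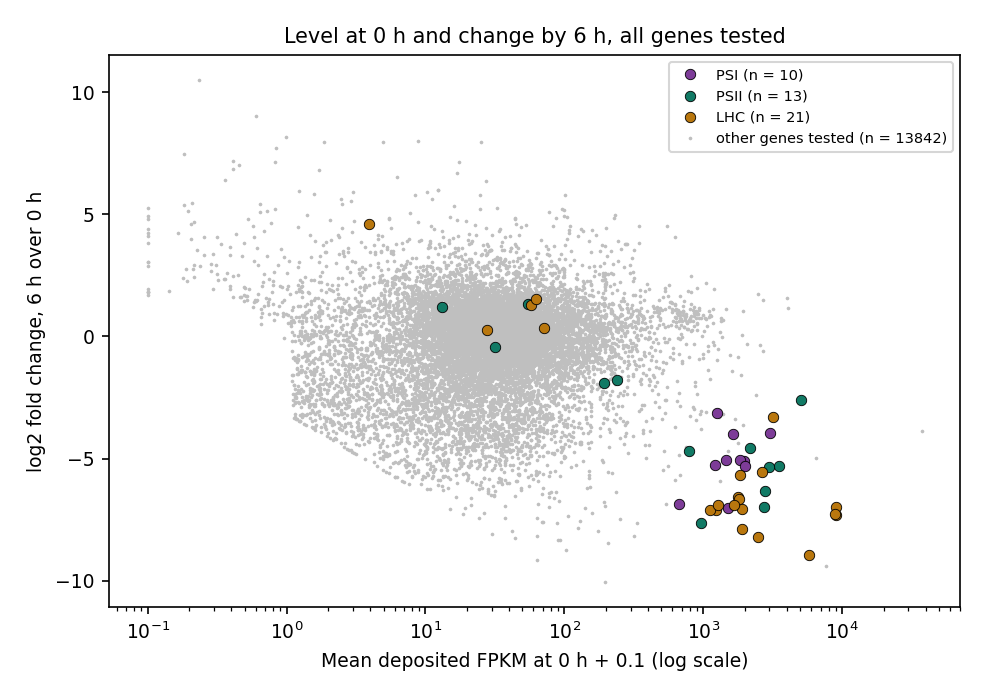
Log2 fold change (6 h over 0 h) against the mean FPKM at 0 h (log axis) for the members, in colour by complex, and for all other genes tested, in grey. Most members lie at the lower right, with LHC11 as the highest of the members at 4.62 and LHC19 as the lowest at -8.94.

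Most members had the same order of the 6 h libraries. In 40 of 44 members, 6 h replicate 1 had the highest and 6 h replicate 3 the lowest FPKM of the group. This order was found in 35 of the 36 down-regulated members, with PsbQ1 as the exception, and in 3 of the 5 up-regulated ones. It was also frequent outside the members, in 36.6% of all genes tested, in 52.8% of all up-regulated genes and in 21.3% of all down-regulated genes. With each library scaled to the same sum it was found in 32 of the 36 members and in 14.3% of all down-regulated genes. The highest 6 h library was 2.17 times the lowest in the median of the 36 genes (range 1.29 to 7), against 1.12 times at 0 h (range 1.03 to 1.34). The cause of this difference between the 6 h cultures was not tested.

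The other sections of the photosynthesis list held 157 genes, all tested, of which 45 (28.7%) were down-regulated and 30 (19.1%) up-regulated, with a median log2 fold change of -0.12. Of the sections, that of chlorophyll biosynthesis came nearest to the photosystem genes, with 21 of 30 genes down-regulated and a median log2 fold change of -3.23. The 2 genes of this section that rose, of 3 such genes, were both annotated as tRNA synthetases for glutamate (Cz16g14040 and Cz06g30050), which make the precursor shared with protein synthesis. Of the 22 genes for cytochrome complexes and soluble electron carriers, 8 were down-regulated and 9 up-regulated. Of the 39 photosystem and chloroplast assembly factors, 8 were down-regulated and 6 up-regulated.

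Among the 11 genes for early light-induced proteins (ELIPs) and high-light-induced proteins, relatives of the LHC proteins that accumulate under light stress, 6 were up-regulated and ELIP3, ELIP8 and ELIP10 down-regulated. Of 19 genes for chlorophyll degradation, 1 of 4 for pheophytinase (Cz10g19170) was up-regulated. Down-regulated there were 1 of 2 genes for chlorophyllase (Cz10g04100), 1 of 2 for the chlorophyllide b reductase NOL (Cz09g17200) and 2 of 7 for pheophorbide a oxygenase (Cz14g19030 and Cz08g13200). Of 24 genes for chloroplast protein import and targeting, TIC20B, TIC21B, TIC40A and TIC40B were up-regulated and CPSRP54A, a subunit of the particle that brings LHC proteins to the thylakoid, was down-regulated. Of 6 heme genes, 1 of the 2 for SUMT (Cz14g07090) was up-regulated. The 4 nuclear genes of the chloroplast ATP synthase all stayed under the limit of 1, with log2 fold changes of -0.41 for AtpC1, 0.90 for AtpC2, -0.34 for AtpD and -0.83 for AtpG, of which those of AtpC2 and AtpG had a limma adjusted p under 0.05 (0.0326 and 0.0392).

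Both genes of non-photochemical quenching, by which excess light energy absorbed by the PSII antenna is lost as heat, encode relatives of the LHC proteins. PSBS (Cz03g01250) had 599, 317 and 349.7 FPKM at 6 h, against 50.8, 49.8 and 50.5 FPKM at 0 h (log2 fold change 3.31 ± 0.26 (SE), limma adjusted p = 9.37e-05). It was up-regulated with no overlap, and 6 h replicate 1 had the highest value. LHCSR (Cz16g02040), the stress-related LHC protein that carries out this function in *Chlamydomonas*, had 199, 156 and 185 FPKM at 6 h, against 272, 293 and 300.1 FPKM at 0 h. All its 6 h values were below its 0 h values as deposited, but its change was under the limit of 1 (log2 fold change -0.38 ± 0.13 (SE), limma adjusted p = 0.0418).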

How the data were processed

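Libraries of poly-A RNA came from 3 biological replicates at 6 h and 3 at 0 h. The deposited values are FPKM with 2 decimals, which the authors made without scaling between libraries. The methods of the study name TopHat 2.0.4 and Cufflinks 2.0.4, whereas the submitters' processing notes name HISAT, Bowtie2 and RSEM. Which of them made the files, and how reads that map to several LHC isogenes were shared, is not given in the sources used here, nor are the genome build and strandedness. The study gives read totals per library, but the fragments behind a single FPKM value were not recovered, since gene lengths were not used here, and the spread between cultures stands for the precision. A gene absent from a library was taken as 0.

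Libraries were scaled by median-of-ratios factors of 0.884, 0.914 and 0.910 for the 6 h libraries and 1.11, 1.11 and 1.13 for the 0 h libraries. After 0.1 was added the values were taken to log2, so that fold changes of low genes are understated. The 13886 genes with a mean of at least 1 FPKM at either time entered a two-sided comparison of the times with limma 3.58.1 in R 4.3.3, with a mean-variance trend and no other term. Adjustment of p followed Benjamini and Hochberg over all of them. Sums, shares and ratios used deposited FPKM and were not tested. The procedure was tried on simulated data with the same spread in all libraries and few changed genes. That setting does not cover the wider spread at 6 h or the large share of changed genes in these data. Figures were drawn with matplotlib 3.10.9 in Python 3.11.15.

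All 45 members are named. Genes of other sections are given as counts and named where a section or count holds 5 genes or fewer. The members and lists were chosen with earlier results of these data known. Columns of fold changes and p-values in the list of photosynthesis genes were not used. Alternatives were other scalings, pseudocounts, filters and fold limits, library weights, no trend, the replicate number as a block, and each library left out in turn.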

Additional observations from a re-analysis of the deposited data

How the results depend on the processing

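The count of 36 down-regulated members was the same under all alternatives but one: with limma's treat, which tests against the fold limit itself, it was 35, and Psb27A was lost (log2 fold change -1.78, adjusted p = 0.0681). The count of 5 up-regulated members was 3 without scaling, 2 with each library scaled to the same sum (TPM), 3 with upper-quartile scaling and 2 with treat. Psb27C and LHC10 lost the call under each of these, and Psb28 lost it on TPM and with treat. The scaling used adds 0.31 on the log2 scale to 6 h over 0 h, and without it the median of all genes was -0.34. Signs turned for LHC15, to -0.056 unscaled, -0.19 on TPM and -0.057 after upper-quartile scaling, and for LHC13 (-0.086 on TPM). Of 792 values of single members over 18 alternatives, 774 kept their direction and side of the limits. Without 1 library in turn, 36 members were down-regulated and 4 to 5 up-regulated, with 10 PSI, 10 PSII and 16 LHC genes down-regulated each time. The value of a down-regulated member moved by over 1.5 times for PsbQ1 (-6.88 without 6 h replicate 1), PsaH (-6.21) and LHC19 (-8.34, both without 6 h replicate 3). The log2 ratio of the summed level (6 h over 0 h) was then -5.05 to -4.62 for PSI, -4.36 to -3.94 for PSII and -5.86 to -5.59 for LHC genes, and -5.42 for LHC on scaled values, against -5.73 as deposited. The sums without 1 library were added after seeing the data.

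With the replicate number as a block, 36 members were down-regulated and 5 up-regulated, and no call of a member changed. Over all genes the block gave 3521 down- and 2696 up-regulated genes, against 3692 and 2772. Same-numbered libraries did not deviate together (r = -0.30, -0.11 and -0.49). With 3 libraries per time these values depend on each other. They cannot decide whether libraries of the same number came from the same culture. Down- and up-regulated genes in all numbered 4466 and 1925 unscaled, 4738 and 1624 on TPM, 4421 and 1925 after upper-quartile scaling, and 2417 and 1384 with treat. The fragments behind a single value were not recovered, which limits the low 6 h values most, such as those of PsbQ1 and LHC19.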

Other observations

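Values of 3 further genes of the photosynthesis list, chosen after their values were seen, are given singly and stand for no group. ALB3 proteins insert LHC proteins into the thylakoid membrane. ALB3A (Cz05g17260) averaged 133.9 FPKM at 6 h and 78.6 FPKM at 0 h, and rose (log2 fold change 1.07, limma adjusted p = 2.32e-04 over all genes tested), by less than the limit of 1 once the 0.31 added by the scaling is taken off. ALB3B (Cz05g36130) averaged 4.81 FPKM at 6 h and 56.0 FPKM at 0 h, and fell (log2 fold change -3.24, limma adjusted p = 5.67e-05). STN7 (Cz06g00060), the kinase that phosphorylates LHCII in state transitions, averaged 12.3 FPKM at 6 h and 54.7 FPKM at 0 h, and fell (log2 fold change -1.88, limma adjusted p = 5.23e-04).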
